A study of Mus musculus with 8 samples.

Results

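The 9 genes of the node of Ranvier and its flanks studied here were followed through the cell types of the mouse brain: Nfasc, Cntn1, Cntn2, Cntnap1, Cntnap2, Ank3, Sptbn4, Scn8a and Kcna2. They were taken by name, and all 9 were among the 32285 genes of the UMI table. The question was in which cells these genes were transcribed, neurons or oligodendrocytes, and whether their levels moved with loss of the myelin protein CNP or with the 5xFAD amyloid transgenes.

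At a node, the myelin sheath is interrupted and voltage-gated sodium channels are held in the bare axon membrane. Ankyrin G (encoded by Ank3) and beta IV spectrin (Sptbn4) anchor the channels, among them Nav1.6 (Scn8a), together with the axonal form of neurofascin (Nfasc). At the paranode, the glial loops attach to the axon through glial neurofascin, which binds the axonal pair of contactin 1 (Cntn1) and CASPR (Cntnap1). Further out, at the juxtaparanode, contactin 2 (Cntn2) and CASPR2 (Cntnap2) hold potassium channels such as Kv1.2 (Kcna2). CNP is an enzyme of the non-compact myelin of oligodendrocytes, and mice without it are known for axonal swellings. The axonal and glial forms of neurofascin come from the same gene and are not separated by counts per gene, and nor are the forms of ankyrin G.

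Nuclei came from the brains of C57BL6/J mice aged 6 months, taken as hemispheres from which the olfactory bulb and cerebellum had been removed. The 4 genotypes were WT, Cnp-/-, 5xFAD and Cnp-/- 5xFAD, with 2 libraries each. Cnp-/- animals lack functional Cnp in every cell, and 5xFAD animals carry transgenes with familial Alzheimer's disease mutations under the neuronal Thy1 promoter. The study's reporting summary describes single-cell replicates as pools of 2 mice. Its methods state such pooling only for the other single-nucleus data set of the study, and give 2 replicates per genotype for this one. The labels do not tie animals to libraries. The p-values measure the spread between 2 libraries per genotype. The 8 libraries held 61949 nuclei, of which the authors named 45141 as neurons and 5612 as mature oligodendrocytes. Summed neuron profiles held 64172772 to 77113463 UMIs (unique molecular identifiers, 1 per captured transcript) per library. Mature oligodendrocyte profiles held 819922 to 1801866 UMIs. Levels are given as counts per 1000000 UMIs of the profile (CPM), and are compared for 1 gene between cells or genotypes, not between genes. A level in CPM is a share of the counted RNA, not an amount per nucleus. Each pair of libraries shared 9 to 28 cell barcodes.

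The labels were checked on Cnp itself. In mature oligodendrocytes its level was 219 to 321 CPM in the 4 libraries with functional Cnp and 23.1 to 32.8 CPM in the 4 libraries of the Cnp-/- background (log2 fold change -3.32 ± 0.17 (SE), edgeR adjusted p = 0.000801). The cell types were checked on their markers. The 5 oligodendrocyte markers, Mbp and Mog among them, summed to 12563 to 15884 CPM in mature oligodendrocytes. The 5 neuron markers (Rbfox3, Snap25, Syt1, Stmn2 and Nefl) summed there to 93 UMIs over all libraries, of which 61 lay in WT replicate 1, and Nefl was at 0. In neurons, the neuron markers summed to 4276 to 5187 CPM and the oligodendrocyte markers to 165 to 339 CPM.

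In CPM, the 9 genes fell into 3 patterns between neurons and mature oligodendrocytes. Nfasc, Ank3 and Cntn2 were higher in mature oligodendrocytes than in neurons in every library. Cntn1, Cntnap1, Cntnap2, Sptbn4 and Scn8a were higher in neurons in every library and close to 0 in mature oligodendrocytes. Kcna2 overlapped between the cell types. These differences are a description and were not tested, because the cell types were found by clustering the same counts. Of 10701 genes with a mean of at least 10 CPM in either cell type, 26.9% were higher in oligodendrocytes and 31.4% higher in neurons in the same sense, so the counts of 3 and 5 members say nothing particular about the 9 genes.

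Nfasc, the adhesion molecule used on both sides of the junction, ranged from 226 to 263 CPM in neurons (median 242, n = 8 libraries). In mature oligodendrocytes it ranged from 840.3 to 1514 CPM (median 1075, n = 8). The pooled level was 4.60-fold higher in mature oligodendrocytes and the ranges lay far apart. Ank3, the membrane scaffold, ranged from 1392 to 1703 CPM in neurons (median 1563) and from 1839 to 2798 CPM in mature oligodendrocytes (median 2309.9). Its pooled difference of 1.51-fold was the smallest of the 3 genes, yet no oligodendrocyte library fell within the neuronal range. Per nucleus, the order of Nfasc and Ank3 was opposite to that of the CPM. In 45141 neuron nuclei they held 135973 and 877364 UMIs, and in 5612 mature oligodendrocyte nuclei 10517 and 22188. Cntn2, with 18242 and 4748 UMIs in these nuclei, was higher in mature oligodendrocytes per nucleus as well.

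Cntn2, the juxtaparanodal adhesion molecule that is known to be carried by both axon and glia, showed the widest gap of the 3. It ranged from 27.9 to 51.2 CPM in neurons (median 30.8) and from 400.2 to 569 CPM in mature oligodendrocytes (median 522), a pooled difference of 15.5-fold. The highest neuronal value, 51.2 CPM, came from WT replicate 2, and the other 7 neuronal profiles lay between 27.9 and 32.0 CPM. The neuron profile of WT replicate 2 also had the highest sum of oligodendrocyte markers, 339 CPM against 165 to 268 CPM in the other libraries. The part of these markers in the neuronal Cntn2 level was not tested.

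**Figure D1:**
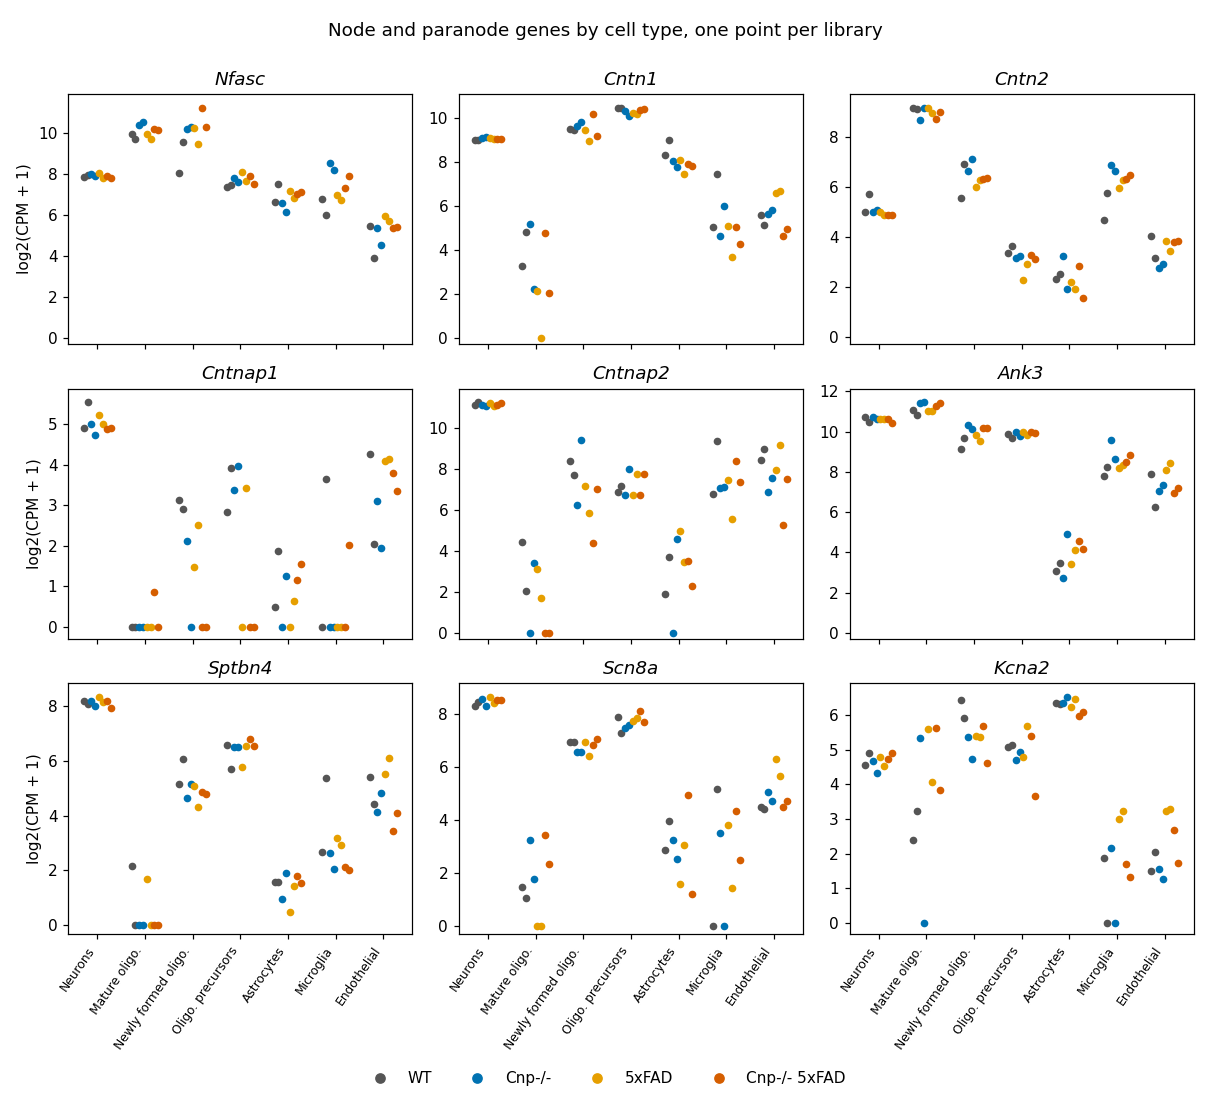
Level of each of the 9 genes in 7 cell types, as log2(CPM + 1) on the vertical axis with 1 point per library and colours for the 4 genotypes (oligo., oligodendrocytes). Nfasc, Cntn2 and Ank3 stand higher in mature oligodendrocytes than in neurons, Cntn1, Cntnap1, Cntnap2, Sptbn4 and Scn8a drop towards 0 there, and Kcna2 is highest in astrocytes.

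The axonal side of the paranodal adhesion complex was nearly absent from mature oligodendrocytes. Cntnap1 was counted with 1 UMI among 9445114 UMIs in all 5612 nuclei, against 25.6 to 46.0 CPM in neurons (median 30.2). The pooled level was 304-fold higher in neurons, with a 95% Poisson interval of 54.6 to 12013 for the oligodendrocyte count. This interval and those for the next genes cover counting error in oligodendrocytes only. Cntn1 held 138 UMIs in mature oligodendrocytes, 0 to 35.3 CPM per library, with 5xFAD replicate 2 at 0. In neurons it was among the steadiest of the 9, with 522 to 558 CPM (536 ± 12.7, SD, n = 8), 36.7-fold higher (interval 31.0 to 43.7).

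The nodal channel and its spectrin were neuronal as well. Scn8a ranged from 319 to 404 CPM in neurons (358 ± 30.01, n = 8) and from 0 to 9.92 CPM in mature oligodendrocytes, where it held 35 UMIs. Its pooled level was 96.8-fold higher in neurons (interval 69.6 to 139). Sptbn4 ranged from 242 to 320 CPM in neurons (278 ± 23.8), and its 8 UMIs in mature oligodendrocytes came from WT replicate 1 and 5xFAD replicate 1, with the other 6 libraries at 0. Cntnap2, the juxtaparanodal partner of Cntn2, ranged from 2169 to 2465 CPM in neurons (2292 ± 112) and from 0 to 20.7 CPM in mature oligodendrocytes, 425-fold apart in the pooled level (interval 323 to 570.4). The highest oligodendrocyte values of Sptbn4 and Cntnap2 both lay in WT replicate 1, the library with 61 of the 93 neuron marker UMIs. Among 5592 mature oligodendrocyte nuclei without any such UMI, Cntnap1 was at 0 UMIs, which allows up to 0.320 CPM (3 counts of the total), and Sptbn4 had 4 of its 8 UMIs. Most UMIs of Scn8a (32 of 35) and Cntn1 (107 of 138) lay in those nuclei, and 23 of 51 for Cntnap2. The same nuclei held 9374559 of the 9445114 UMIs of all genes. Scn8a, Cntn1 and Cntnap2 thus each had a larger share of their UMIs outside them than all genes together. The part of neuronal RNA in these counts was not tested.

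Kcna2, the axonal potassium channel, ranged from 19.1 to 29.0 CPM in neurons (median 25.1). In mature oligodendrocytes it was 4.32 and 8.46 CPM in WT, 39.6 and 0 CPM in Cnp-/-, 47.2 and 15.7 CPM in 5xFAD, and 48.0 and 13.3 CPM in Cnp-/- 5xFAD. The pair of libraries differed widely in every genotype but WT, and the oligodendrocyte range covered the neuronal one. In the shares of nuclei, each nucleus thinned to 500 UMIs, Kcna2 was found in 1.15% of mature oligodendrocytes and 1.14% of neurons, against 0.0909% of microglia and 0.101% of endothelial cells. Without thinning, the shares were 4.098% and 22.4%, at median depths of 1515 and 9105 UMIs, against 0.728% of microglia at 1395 UMIs.

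The same thinning gave the other genes. Cntn2 was found in 22.9% of mature oligodendrocytes and 1.51% of neurons, Nfasc in 41.5% and 10.98%, and Ank3 in 66.6% and 53.1%. Endothelial cells, which are not known to build nodes, gave 0.496% for Cntn2, 1.44% for Nfasc and 3.58% for Ank3. Microglia gave 1.99%, 4.03% and 6.49%, so their share for Cntn2 was above that of neurons. Astrocytes gave 0.176%, 5.49% and 0.383%. Unthinned, Ank3 had at least 1 UMI in 94.7% of mature oligodendrocytes and 99.4% of neurons. Without thinning, Cntn2 was found in 53.3% of mature oligodendrocytes and 25.9% of neurons, and Nfasc in 76.6% and 80.8%, so for Nfasc and Ank3 the order of the unthinned shares was opposite to that of the thinned shares and of the CPM.

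Along the oligodendrocyte lineage, the 9 genes divided again. In oligodendrocyte precursors, Cntn1 reached 1108 to 1433 CPM (1292 ± 116, n = 8), its highest level of any cell type and above every neuronal library. In newly formed oligodendrocytes it was 493 to 1174 CPM (763 ± 209), overlapping with both, and in mature oligodendrocytes it was 13.5 ± 13.9 CPM. Scn8a and Sptbn4 were ordered in the same way below neurons. Scn8a was 154 to 282 CPM in precursors and 85.8 to 134 CPM in newly formed cells, and Sptbn4 was 51.4 to 110.03 CPM and 19.1 to 65.6 CPM. The ranges of precursors and newly formed cells did not overlap for Scn8a but did for Sptbn4.

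Cntn2 ran the opposite way, and Nfasc did so in part. Nfasc was 166 to 271 CPM in precursors and 262 to 2435 CPM in newly formed oligodendrocytes (1134 ± 633), which overlapped with precursors and covered the whole range of mature cells. Cntn2 was 3.78 to 11.4 CPM in precursors, 46.2 to 138 CPM in newly formed and 400.2 to 569 CPM in mature oligodendrocytes, 3 ranges without overlap. Ank3 was 828 to 1019 CPM in precursors and 563 to 1281 CPM in newly formed cells, which overlapped, and was higher in every mature library. In newly formed cells, Ank3 was 1120.4 to 1281 CPM in the 4 libraries of the Cnp-/- background and 563 to 904 CPM in the other 4, an order that 2.82% of 10124 genes showed, and Nfasc overlapped. Newly formed oligodendrocytes numbered 465 nuclei in all, 22 to 104 per library, and their oligodendrocyte marker sum was 4125 to 5185 CPM in the Cnp-/- background and 1372 to 3437 CPM in the other libraries. The part of these markers in the spread of the 3 genes was not tested.

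Outside neurons and the oligodendrocyte lineage, astrocytes stood out for Kcna2. It was 61.6 to 91.3 CPM in astrocytes (77.8 ± 9.74, n = 8), above every neuronal library, and after thinning it was found in 3.66% of astrocyte nuclei. Cntn1 was 173 to 511 CPM in astrocytes, below every neuronal library, and Nfasc was 70.7 to 183 CPM. Ank3 was low there, 5.61 to 28.8 CPM, and Cntnap1, Sptbn4 and Cntn2 had means of 1.01, 1.76 and 4.27 CPM. In microglia, Nfasc, Ank3 and Cntn2 were each higher in all 4 libraries of the Cnp-/- background than in the other 4, as were 3.32% of 9955 genes, and the oligodendrocyte markers in microglia showed the same order (1952 to 4167 against 722 to 1774 CPM). The part of these markers was not tested.

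Further genes of the node were set beside the 9, and here too 31.4% of all genes of at least 10 CPM were higher in neurons and 26.9% in mature oligodendrocytes. The lists also hold genes below that level in both cell types, such as Scn4b and Gldn, which these shares do not cover. Of 15 further genes of the node and axon initial segment, 14 were higher in neurons in every library, among them the sodium channel genes Scn1a and Scn2a. Kcnq3, a subunit of the nodal M-type potassium channel, was the exception, with 1303 ± 144 CPM in mature oligodendrocytes and 747 ± 37.7 CPM in neurons (SD, n = 8 each). Of 13 paranodal and juxtaparanodal genes, 7 were higher in neurons and 4 in mature oligodendrocytes, namely Ank2, Kcna1, Kcnab1 and Lgi3. The Kv1.1 gene Kcna1 was 281 ± 41.7 CPM in mature oligodendrocytes and 57.4 ± 7.70 CPM in neurons, whereas Kcna2, which shares channels with it, overlapped. Of 10 genes of the nodal matrix and the glial side, 5 were higher in mature oligodendrocytes (Hapln2, Mag, Ugt8a, Gal3st1 and Ermn) and 4 in neurons (Bcan, Vcan, Tnr and Gldn).

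Neurons were not uniform for the 9 genes. By their transmitter genes, 17312 neuron nuclei were classed as glutamatergic, with at least 2 UMIs of Slc17a7 or Slc17a6 and none of Gad1 or Gad2. By the reverse rule, 9175 were GABAergic. The other 18654 met neither rule, and nuclei with UMIs of both pairs fall among them. Cntnap2 was 3074 to 6432 CPM in GABAergic and 1317 to 1780.5 CPM in glutamatergic neurons, and Scn8a was 172 to 307 CPM and 379 to 439 CPM. Neither gene overlapped between the classes, and they differed in opposite directions. Nfasc was 203 to 236 CPM in GABAergic and 224 to 265 CPM in glutamatergic neurons, which overlapped, as did the ranges of Ank3, Cntn1, Cntn2, Cntnap1, Sptbn4 and Kcna2.

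In the authors' clusters, 12 of 25 neuron clusters had at least 20 nuclei in every library and held 31938 nuclei. Cntnap2 showed the widest range across them, from 1025 ± 78.2 CPM in cluster 17 to 6720.0 ± 607 CPM in cluster 8 (SD, n = 8 libraries), 6.56-fold. Cluster 18 was next with 6502 ± 596 CPM, and the 2 overlapped. Both were rich in Gad1 and Gad2, which summed to 513 and 956 CPM. Cluster 0, the largest, held 6859 nuclei and 197343842 of the 562167111 neuron UMIs. It carried both pairs at nearly equal levels, 153 CPM of Slc17a7 and Slc17a6 and 149 CPM of Gad1 and Gad2. Ank3 varied least, with 1.28-fold between the lowest and highest cluster, followed by Sptbn4 with 1.43-fold. Nfasc, Cntn1 and Cntn2 had their highest mean in the same cluster, number 17, at 363 ± 37.6, 667 ± 32.1 and 49.1 ± 7.07 CPM. Cntnap1, Cntnap2 and Kcna2 shared cluster 8 as their highest, with 50.7 ± 4.08 CPM for Cntnap1 and 52.2 ± 10.3 CPM for Kcna2. For Nfasc, Cntn1, Cntn2, Cntnap1, Cntnap2 and Kcna2, the libraries of the highest cluster overlapped in level with those of the next. These genes took part in the clustering, so the differences are a description.

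**Figure D2:**
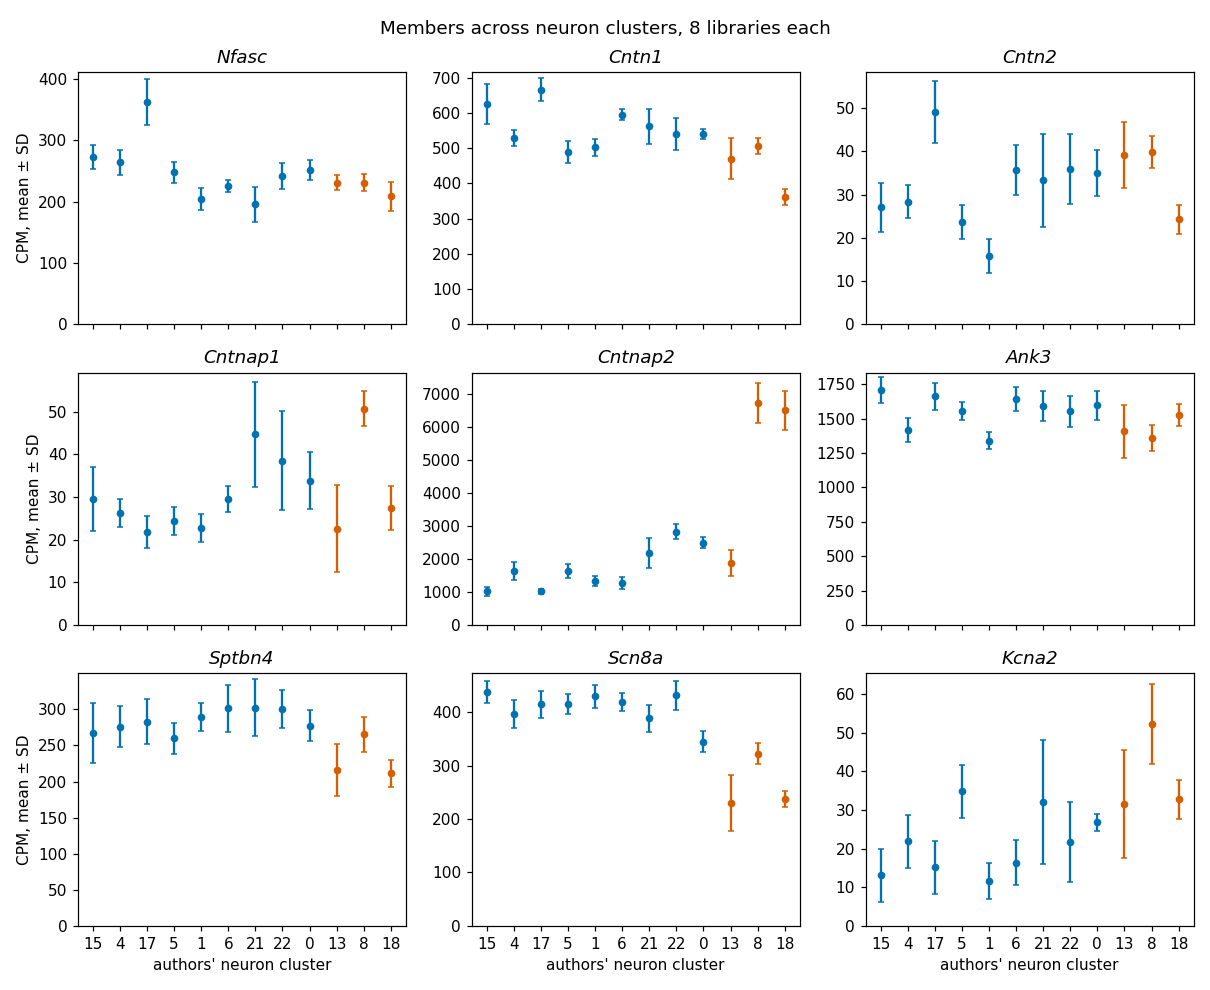
Mean level (CPM, vertical axis from 0) of each of the 9 genes in 12 neuron clusters of the authors, with bars for the SD over 8 libraries. Orange clusters have more Gad1 and Gad2 than Slc17a7 and Slc17a6, blue clusters the reverse. Cluster 0 is blue on 153 CPM of Slc17a7 and Slc17a6 against 149 CPM of Gad1 and Gad2. Cntnap2 is at 6720.0 and 6502 CPM in clusters 8 and 18 and at most 2828 CPM in the other clusters, and Ank3 varies by 1.28-fold.

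The patterns over all 64 profiles (8 cell types in 8 libraries) were set beside those of 11101 genes with a mean of at least 10 CPM. Profiles of 1 library share their preparation, and cell types differ widely in total UMIs, so correlations are given without a test. The gene most like Ank3 was the RNA-binding neuronal gene Elavl3 (Pearson r = 0.97), followed by Hecw2 and Slc8a3. Sptbn4 was closest to Pdzd4 (r = 0.96), Scn8a to Arhgap44 (r = 0.95) and Nfasc to the microtubule gene Mapt (r = 0.94). Cntn1 was closest to Brinp3 (r = 0.94), Cntnap2 to Pacsin1 (r = 0.93), Cntn2 to Tmem151a (r = 0.90) and Kcna2 to Slc39a14 (r = 0.86). Cntnap1 did not reach the mean of 10 CPM. Among the members, Cntnap2 and Sptbn4 were most alike (r = 0.88), next came Sptbn4 and Scn8a (r = 0.88), then Cntn1 and Scn8a (r = 0.82). Nfasc, Ank3 and Cntn2 were alike as well, with r = 0.77 for Nfasc and Ank3, 0.74 for Cntn2 and Ank3 and 0.72 for Nfasc and Cntn2.

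In the GENCODE annotation of GRCm38, Cntn2 (ENSMUSG00000053024) spans chromosome 1 from 132509427 to 132543256. Nfasc (ENSMUSG00000026442) spans the same strand from 132564690 to 132741797, 21.4 kb away and with no annotated gene between them. Ank3 (ENSMUSG00000069601) spans 629 kb on chromosome 10, from 69398773 to 70027438. Cntnap1 (ENSMUSG00000017167), on chromosome 11 from 101170523 to 101190724, starts 579 kb beyond the end of Cnp.

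With Cnp loss, Nfasc and Ank3 stood higher in mature oligodendrocytes, in all 4 libraries of the Cnp-/- background above all 4 others, but neither passed the threshold of 0.05 in edgeR's quasi-likelihood test. Nfasc was 988 and 840.3 CPM in WT and 1016 and 855 CPM in 5xFAD. It was 1345 and 1514 CPM in Cnp-/-, and 1181 and 1135 CPM in Cnp-/- 5xFAD. The means were 1294 ± 172 CPM with the deletion and 925 ± 89.9 CPM without it (SD, n = 4 each). The fitted log2 fold change was 0.55 ± 0.11 (SE), with an edgeR adjusted p of 0.0798. The 2 groups did not overlap, but the gap between their closest libraries was smaller than the SD of the Cnp-/- background.

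Ank3 followed the same order. It was 2129 and 1839 CPM in WT and 2057 and 2061 CPM in 5xFAD, against 2734 and 2798 CPM in Cnp-/- and 2491 and 2709 CPM in Cnp-/- 5xFAD. The means were 2683 ± 133 and 2022 ± 126 CPM (n = 4 each). The log2 fold change was 0.48 ± 0.087, with an edgeR adjusted p of 0.0612. Again no library overlapped, and the gap was wider than either SD. Both genes therefore had differences larger than the spread of libraries for 1 gene taken alone (unadjusted p = 0.00129 for Nfasc and 0.000629 for Ank3) that did not hold after adjustment over 8761 genes.

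Cntn2, the third gene of high level in these cells, did not share the pattern. It was 569 and 545 CPM in WT, 400.2 and 556 CPM in Cnp-/-, 568 and 495 CPM in 5xFAD, and 420.0 and 499 CPM in Cnp-/- 5xFAD. The groups overlapped, and the log2 fold change was -0.14 ± 0.15 (edgeR adjusted p = 0.774). The oligodendrocyte markers gave 12563 to 15676 CPM with the deletion and 13276.5 to 15884 CPM without it, and the markers of newly formed cells, Bcas1 and Enpp6, 989 to 1171 and 1069 to 1121 CPM. Both lists overlapped between the groups. The astrocyte markers (Aqp4, Slc1a3 and Gfap) in the same profiles did not, with 193 to 221 CPM in the Cnp-/- background and 225 to 309 CPM in the other 4 libraries. Their part in the Nfasc and Ank3 differences was not tested.

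**Figure D3:**
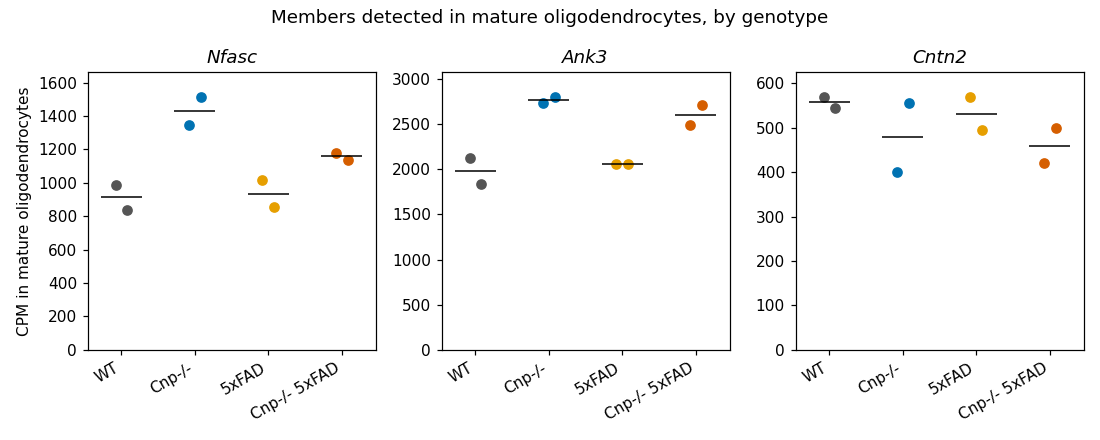
Level of Nfasc, Ank3 and Cntn2 in mature oligodendrocytes (CPM, vertical axes from 0) by genotype, with 1 point per library and a line at the mean of 2. For Nfasc and Ank3 the 4 libraries of the Cnp-/- background lie above the other 4, and for Cntn2 the genotypes overlap.

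The background of these counts was as follows. Of 8761 genes tested in mature oligodendrocytes, 67 passed for Cnp loss (0.765%), and 0 of the 6 members tested did, with 2 at an unadjusted p under 0.05, as were 1052 genes (12%). The 4 Cnp-/- libraries lay above the other 4 for 3.96% of these genes. DESeq2, which made 517 calls (6.02%), called Nfasc (adjusted p = 3.84e-05) and Ank3 (adjusted p = 5.98e-07) as higher and no other member. Cntnap1, Sptbn4 and Scn8a did not pass the filter on low counts and were not tested in these cells, and the fitted values of Cntn1, Cntnap2 and Kcna2 rest on 51 to 248 UMIs and are not given. In edgeR, the 2 calls were made without a filter on low counts (adjusted p = 0.000596 for Nfasc and 0.000824 for Ank3), with newly formed cells added (0.0345 and 0.0211) and without Cnp-/- replicate 1 (0.0487 and 0.0481).

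Each background gave the same direction. Fitted on the libraries without 5xFAD alone, the log2 fold change was 0.71 ± 0.18 for Nfasc and 0.54 ± 0.15 for Ank3. On the libraries with 5xFAD it was 0.37 ± 0.13 and 0.40 ± 0.096. The interaction was -0.35 ± 0.22 for Nfasc and -0.15 ± 0.17 for Ank3 (edgeR adjusted p = 1.00 for both), so no difference between the backgrounds was detected, and 0 of 8761 genes passed (0%), with 299 at an unadjusted p under 0.05 and 11 called by DESeq2. None of the 6 members tested was below 0.05 before adjustment.

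For 5xFAD, no member passed the test in mature oligodendrocytes. The log2 fold changes were -0.17 ± 0.11 for Nfasc, -0.050 ± 0.086 for Ank3 and -0.095 ± 0.15 for Cntn2, each with an edgeR adjusted p of 1.00. No gene passed (0% of 8761, with 326 at an unadjusted p under 0.05 and 12 called by DESeq2), and 0 of the 6 members tested were among either set.

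In neurons, where all 9 genes passed the filter on low counts, none passed the test for Cnp loss (edgeR, 0 of 9, with 0 at an unadjusted p under 0.05 and 0 called by DESeq2). Of 21584 genes, 4 passed (0.0185%), 1756 were at an unadjusted p under 0.05 (8.14%), and DESeq2 called 181. The fitted log2 fold changes were small. The highest were 0.10 ± 0.090 for Scn8a and 0.093 ± 0.051 for Cntn1. Nfasc and Ank3, which stood higher in mature oligodendrocytes, were at 0.058 ± 0.072 and 0.049 ± 0.083 in neurons, Cntnap2 and Kcna2 at 0.026 ± 0.072 and 0.028 ± 0.13, and Sptbn4 at -0.053 ± 0.087.

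The lowest was Cntnap1, at -0.26 ± 0.15 (edgeR adjusted p = 0.705). It was 29.4 and 46.0 CPM in WT, 31.1 and 25.6 CPM in Cnp-/-, 36.7 and 31.4 CPM in 5xFAD, and 28.6 and 28.9 CPM in Cnp-/- 5xFAD. The groups overlapped, and WT replicate 2 was the highest library. Without it the value was -0.092 ± 0.11. Of 55 tested genes within 1 Mb of Cnp, Cntnap1 included, 0 passed in neurons. Just outside that window, however, lay 3 of the 4 genes that did pass (Krt12, Krt20 and A830036E02Rik, each lower), between 99415666 and 99438150 on chromosome 11, the chromosome of Cnp. Cntn2 was next, at -0.16 ± 0.14, and rested on the same library: without WT replicate 2 it was 0.032 ± 0.076.

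For 5xFAD in neurons, 0 of 9 members and 0 of 21584 genes passed in edgeR (0%). Before adjustment, 2542 genes and 0 members were under 0.05, and DESeq2 called 506 genes and 0 members. Cntn2 had the largest value, -0.30 ± 0.14 (edgeR adjusted p = 0.464). Its levels were 31.0 and 51.2 CPM in WT and 30.8 and 32.0 CPM in Cnp-/-, against 30.7 and 27.9 CPM in 5xFAD and 28.2 and 27.9 CPM in Cnp-/- 5xFAD. The 4 libraries with 5xFAD lay below the other 4, as they did for 2.47% of the genes, but the closest libraries were nearly equal. Without WT replicate 2 the value was -0.11 ± 0.076. The oligodendrocyte markers in the same neuron profiles were 165 to 218 CPM with 5xFAD and 195 to 339 CPM without it, and their part in the Cntn2 values was not tested. The other 8 members ranged from -0.047 ± 0.083 for Ank3 to 0.14 ± 0.090 for Scn8a in the whole neuron profiles. Cntnap2 was wider within classes. It was 5376 ± 1217 CPM with 5xFAD and 4000 ± 984 CPM without it in GABAergic neurons, and 1539 ± 190 and 1568 ± 190 CPM in glutamatergic neurons (SD, n = 4 each). Its fitted value reached 0.43 among 18 alternatives, with the sign reversed in 5, and passed in none. The interaction passed for 0 of 9 members and 0% of genes in edgeR, with 1066 genes and 0 members under 0.05 before adjustment and 58 genes and 0 members called by DESeq2.

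**Figure D4:**
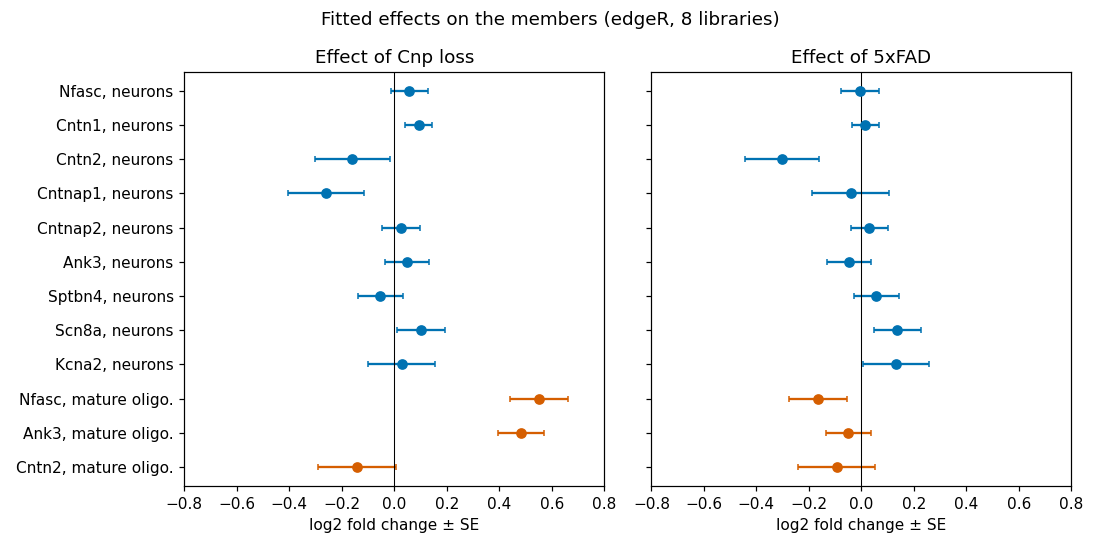
Fitted log2 fold changes (horizontal axis, bars are SE) for Cnp loss and 5xFAD over 8 libraries, with all 9 genes in neurons (blue) and the 3 genes of high level in mature oligodendrocytes (orange). Nfasc and Ank3 in mature oligodendrocytes sit at 0.55 and 0.48 for Cnp loss, and the neuronal values lie between -0.30 and 0.14.

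The neuron profiles differed in their makeup. The GABAergic share of neuron nuclei was 8.53% to 35.6% per library, and the 2 WT libraries were at 35.6% and 14.1%. WT replicate 2, the highest library for Cntn2 and Cntnap1, held 717 of the 864 nuclei of cluster 25. It also held 719 of the 1819 nuclei of cluster 11, and neither cluster is among the 12. Cluster 7, also outside the 12, had 1164 and 45 nuclei in WT and 2 and 1183 in Cnp-/-. With 5xFAD it had 0 and 2 nuclei, and 13 and 0 in Cnp-/- 5xFAD. The part of this makeup in the neuronal values of the 9 genes, Cntn2 and Cntnap1 included, was not tested. With each of the 12 clusters given equal weight, an alternative chosen after the data were seen, no member passed for Cnp loss or 5xFAD, and Cntn2 was at -0.13 ± 0.086 for 5xFAD.

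The difference of the Cnp effect between neurons and mature oligodendrocytes was tested with the library as a term, in 16 profiles. It was -0.50 ± 0.22 for Nfasc (neurons minus oligodendrocytes, edgeR adjusted p = 0.828) and -0.44 ± 0.23 for Ank3 (adjusted p = 1.00), and 0.010 ± 0.25 for Cntn2. In edgeR, Nfasc was under 0.05 before adjustment (unadjusted p = 0.0397) and Ank3 was not (unadjusted p = 0.0803). No member passed (0 of 9), and 38 of 20906 genes did (0.182%). Before adjustment, 4 members and 1177 genes (5.63%) were under 0.05.

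Scn8a came closest to the threshold (edgeR adjusted p = 0.0521), on very few oligodendrocyte counts. It held 2 and 1 UMIs in WT, 14 and 2 in Cnp-/-, 0 and 0 in 5xFAD, and 12 and 4 in Cnp-/- 5xFAD. Scn8a, Sptbn4 and Cntnap1 had failed the filter on low counts in mature oligodendrocytes and entered the joint fit through their neuronal counts. Cntnap2 had 51 oligodendrocyte UMIs. Cntnap1 had 1, and its fits for Cnp loss and 5xFAD gave no SE, so its place among the 0 of 9 is not a test. Fitted values or calls of Scn8a, Sptbn4, Cntnap1 and Cntnap2 under any setting of this contrast are therefore not read as a difference between the cell types. No fold is given for them.

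For 5xFAD the differences were 0.17 ± 0.22 for Nfasc, 0.020 ± 0.23 for Ank3 and -0.18 ± 0.25 for Cntn2. Past the threshold were 0 of 9 members and 0% of the genes, and 3 members and 685 genes (3.28%) were under 0.05 before adjustment. The fit of Sptbn4 had an SE of 9097, so its place among the 0 of 9, like that of Cntnap1, is not a test. DESeq2 was not run for this contrast. The unadjusted values under 0.05 other than that of Nfasc belong to genes with 8 to 138 UMIs in mature oligodendrocytes.

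The further genes of the node, the paranode and the nodal matrix were read for Cnp loss, 5xFAD and their interaction within each cell type, and in edgeR none passed in these 6 comparisons. For Cnp loss in mature oligodendrocytes, 9 of 13 paranodal and juxtaparanodal genes were tested, with 5 under 0.05 before adjustment (12% over all genes) and 2 called by DESeq2 (6.02% over all genes). Those 2, named after their values were seen, were Kcnab1, a potassium channel subunit, and Epb41l3, the band 4.1 protein of the paranodal axon. Kcnab1 had a log2 fold change of 0.42 ± 0.10 (edgeR adjusted p = 0.132) and Epb41l3 one of -0.60 ± 0.11 (adjusted p = 0.0654). The median of the list was 0.13, against -0.033 for all genes. Of 10 genes of the nodal matrix and glial side, 6 were tested, and 2, Hapln2 and Omg, were under 0.05 before adjustment (12% over all genes). DESeq2 called both as lower (6.02% over all genes), and edgeR called neither (adjusted p = 0.16 for both). Omg held 222 UMIs in these cells, 22.7 ± 18.2 CPM (SD, n = 8), so its call is not read as a difference. Of the 15 nodal genes 3 were tested, and none was under 0.05 or called by DESeq2.

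In neurons, the 15 nodal, 13 paranodal and 10 matrix and glial genes were all tested. For Cnp loss, 0, 1 and 1 of them were under 0.05 before adjustment (8.14% over all genes) and none was called by DESeq2, which called 181 genes in all. For 5xFAD, the numbers were 1, 2 and 7 (11.8% over all genes), with 0, 1 and 2 called by DESeq2 (Kcna1, Bcan and Vcan, each lower), among 506 genes in all. The median of the matrix and glial list for 5xFAD was -0.50, against -0.00098 for all genes, and those for the nodal and paranodal lists were 0.11 and 0.015. Beside it stand the oligodendrocyte markers given above and the astrocyte markers in the neuron profiles, 18.9 to 47.1 CPM with 5xFAD and 36.6 to 84.8 CPM without it. The oligodendrocyte precursor markers (Pdgfra and Cspg4) were lower in all 4 libraries with 5xFAD, 3.04 to 5.935 CPM against 5.939 to 10.2 CPM. Bcan and Vcan were at 411 ± 69.01 and 1034 ± 171 CPM in precursors, at 687 ± 77.1 and 52.9 ± 8.07 CPM in astrocytes, and at 21.6 ± 10.2 and 15.1 ± 5.17 CPM in neurons (SD, n = 8 each). The part of these markers in the median was not tested. For 5xFAD in mature oligodendrocytes, 1 matrix or glial gene was under 0.05 before adjustment (3.72% over all genes) and DESeq2 called none of the 3 lists. For the interactions in either cell type, 1 nodal gene in neurons was under 0.05 before adjustment (4.94% over all genes), and DESeq2 called none.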

How the data were processed

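Single-nucleus 3′ libraries of 8 brain hemisphere samples were analysed. The authors aligned reads to mm10 with Cell Ranger 6.1.2, removed ambient transcripts with CellBender, filtered nuclei and clustered them with Seurat. The deposited values are whole UMI counts per gene and nucleus, not normalised and taken after the ambient step, which can lower counts near 0, with the authors' cell type and cluster for each nucleus. Whether intronic reads were counted and how doublets were treated is not given in the sources used here. The table of microglia subpopulations was not used.

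Counts were summed per library and cell type, the library being the replicate. Genes were filtered with filterByExpr, scaled by TMM and tested two-sided with the quasi-likelihood test of edgeR 4.0.16 (1 mean per genotype, Benjamini-Hochberg threshold 0.05). Cnp loss and 5xFAD are averages over the other factor. The difference between cell types was fitted on 16 profiles with library terms. Log2 fold changes are the model's, without a pseudocount. The biological coefficient of variation was 0.207 in neurons and 0.466 in mature oligodendrocytes. Models were tested on simulated data with 1 coefficient of variation for all genes. For Cnp loss in mature oligodendrocytes, 0% of 1.41-fold, 4.48% of 2-fold and 52.2% of 4-fold changes were recovered. In neurons the shares were 3.03%, 67.2% and 98.5%. The fits of Nfasc and Ank3 for Cnp loss in mature oligodendrocytes had an SE of 0.11 and 0.087. Whether the shares hold at the spread of each member was not tested. A gene that did not pass is not shown to be unchanged. Alternatives in R 4.3.3 were DESeq2 1.42.0, its size factors in edgeR, no low-count filter, nuclei with at least 1000 UMIs, subsets of neurons and libraries left out.

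Named were all 9 members, Cnp, genes of 3 lists (nodal, paranodal, nodal matrix and glial) past the threshold, and for each member the genes most like it in pattern. Genes of the lists that did not pass were named after their values were seen. The members and lists were chosen with earlier results of these data known. Thinned shares are the expected share of nuclei with a UMI among 500 drawn. Positions are those of GENCODE for GRCm38. No sequences are shown. Some genes of the lists are not reported here.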

Additional observations from a re-analysis of the deposited data

Results flagged for a closer look

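Cntn1 in neurons had opposite orders in the 2 backgrounds in unscaled CPM, though not in the fitted values. Without 5xFAD, both Cnp-/- libraries (546 and 558 CPM) lay above both WT libraries (522 and 522 CPM), and with 5xFAD both Cnp-/- 5xFAD libraries (536 and 525 CPM) lay below both 5xFAD libraries (542 and 537 CPM). The difference of the log2 ratios of the means was -0.105, and it is the same number for Cnp loss between 5xFAD backgrounds and for 5xFAD between Cnp backgrounds. The fitted interaction was -0.089 ± 0.10 (edgeR adjusted p = 1.00), so the difference did not pass the test. With TMM scaling, the fitted log2 fold change for Cnp loss was positive in both backgrounds, 0.12 ± 0.085 without and 0.048 ± 0.083 with 5xFAD.

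Microglia, for which no model was fitted, held more of the 3 genes that are high in mature oligodendrocytes in every library of the Cnp-/- background than in any other. The means were 269 ± 91.0 against 102 ± 26.6 CPM for Nfasc, 499 ± 189 against 283 ± 47.3 CPM for Ank3 and 94.2 ± 15.3 against 53.0 ± 21.2 CPM for Cntn2 (SD, n = 4 each). Of 9955 genes with a mean of at least 10 CPM in microglia, 3.32% showed this order. The oligodendrocyte markers in the same profiles were 1952 to 4167 CPM in the Cnp-/- background and 722 to 1774 CPM in the others, without overlap. Their part in the 3 values was not tested, and no test across libraries was run in microglia.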

How the results depend on the processing

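For Cnp loss in mature oligodendrocytes the 67 genes became 544 without a filter on low counts, 517 with DESeq2, 154 with newly formed cells added, 103 with nuclei of at least 1000 UMIs, 23 with the replicate block, and 0 in the libraries with or without 5xFAD alone. The members called were 2, 2, 2 and 1 under the first 4 of these. Leaving out a library gave 2 genes (without 5xFAD replicate 2) to 262 genes (without Cnp-/- replicate 1), and each of the 8 moved the count by over 1.5 times. Both members were called only without Cnp-/- replicate 1, and the other 7 gave 0 members. Nfasc and Ank3 kept their direction under all alternatives, with an adjusted p for Nfasc of 3.84e-05 to 0.525. In neurons, the 4 genes for Cnp loss became 181 with DESeq2, 1 in the libraries with 5xFAD alone, 0 in those without 5xFAD and 0 in GABAergic neurons, and 2 to 5 with a library left out. For 5xFAD in neurons, 0 became 506 with DESeq2 and 0 to 4 with a library left out (4 without Cnp-/- replicate 1). The interaction in neurons gave 58 genes with DESeq2, 2 with equal cluster weights and 0 to 1 with a library left out. In mature oligodendrocytes, 5xFAD gave 37 genes without a filter and 12 with DESeq2, and the interaction 44 and 11. Without a filter, the difference of the Cnp effect gave 373 genes and 3 members, and that of the 5xFAD effect 118 genes and 2 members. None of these members was Nfasc, Ank3 or Cntn2. The remaining members held 1 to 248 oligodendrocyte UMIs, and their calls are not read as differences. The share over all genes without a filter is not given. With a library left out, the difference of the Cnp effect gave 99 to 280 genes with 0 to 2 members (Scn8a in 7 of 8 cases, Cntnap2 in 3, on 35 and 51 oligodendrocyte UMIs and not read as differences). That of the 5xFAD effect gave 3 to 58 genes with 0 to 1 member (Cntn1, without Cnp-/- 5xFAD replicate 1). The cause was not tested.

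Members with small values in neurons changed sign, none past the threshold. For Cnp loss, Nfasc and Kcna2 were at -0.0073 and -0.24 in GABAergic neurons, Cntn2 at 0.0052 and Ank3 at -0.020 with 5xFAD, Cntnap2 at -0.066 and Kcna2 at -0.19 without 5xFAD, and Cntn2 at 0.021 with equal cluster weights. For 5xFAD with functional Cnp, Nfasc was at 0.047, Cntnap2 at -0.047, Ank3 at 0.018 and Kcna2 at -0.070. On the Cnp-/- background, Cntn1 was at -0.027, Cntnap1 at 0.051 and Sptbn4 at -0.0045. In glutamatergic neurons, Cntn1 was at -0.013, Cntnap2 at -0.043, Sptbn4 at -0.061 and Scn8a at -0.030, and in GABAergic neurons Cntn1 at -0.14 and Cntnap1 at 0.29. With equal cluster weights, Cntn1 was at -0.059, Cntnap2 at -0.041, Sptbn4 at -0.077 and Scn8a at -0.069. In mature oligodendrocytes with functional Cnp, 5xFAD gave 0.0074 for Nfasc and 0.024 for Ank3.

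With 1 library left out, the values for Cnp loss in neurons ran from -0.0024 to 0.11 for Nfasc, -0.31 to 0.032 for Cntn2, -0.019 to 0.060 for Cntnap2, -0.014 to 0.12 for Ank3 and -0.085 to 0.12 for Kcna2. For 5xFAD they ran from -0.074 to 0.057 for Nfasc, -0.0021 to 0.031 for Cntn1, -0.18 to 0.13 for Cntnap1, -0.016 to 0.073 for Cntnap2, -0.11 to 0.023 for Ank3 and -0.0033 to 0.11 for Sptbn4. In mature oligodendrocytes 5xFAD ran from -0.22 to 0.057 for Cntn2 and -0.096 to 0.0028 for Ank3. The difference of the Cnp effect for Cntn2 ran from -0.18 to 0.21, and that of the 5xFAD effect from -0.36 to 0.014 for Cntn2 and -0.056 to 0.098 for Ank3.

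The replicate numbers did not pair the libraries: deviations of same-numbered libraries correlated at -0.20 to 0.19 in neurons and -0.088 to 0.16 in mature oligodendrocytes. With the replicate block, Nfasc and Ank3 had edgeR adjusted p-values of 0.138 and 0.121 for Cnp loss in mature oligodendrocytes. Mature oligodendrocyte profiles held far fewer UMIs than neuron profiles and varied more between libraries. Cntnap1, Sptbn4 and Scn8a entered the test there only without the filter on low counts, with newly formed cells added (Sptbn4 and Scn8a) or with some libraries left out (Scn8a), and passed in none of these.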
